A study of Mus musculus with 6 samples.

Results

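Neurexins, neuroligins and leucine-rich repeat transmembrane neuronal proteins (LRRTMs) are adhesion proteins that join the 2 sides of a synapse. This account covers 9 genes of these families, Nrxn2, Nrxn3, Nlgn1, Nlgn2, Nlgn3, Lrrtm1, Lrrtm2, Lrrtm3 and Lrrtm4. They were measured in sorted olfactory bulb cells of control mice and of mice in which the transcription factor gene Sox9 was targeted for deletion. The genes were chosen by their symbols, as members of these families, and all 9 were found among the 24421 gene symbols of each of the 6 libraries. RNA-seq libraries were made from sorted olfactory bulb cells, each from 1 mouse, 3 of them control and 3 Sox9 KO. All were adult males, and all received the same adeno-associated virus, AAV-GFAP-iCre-P2a-TurboRFP, in the olfactory bulbs 4 weeks before the cells were taken. KO mice were Sox9fl/fl and controls were C57BL/6J mice without the floxed allele, so that cells of both groups carried Cre and the red fluorescent protein TurboRFP and only the KO group had an allele for Cre to delete. Cre and TurboRFP were driven by the GFAP promoter, which is used to reach astrocytes, and cells were gated on TurboRFP alone, so a library holds any cell in which the virus was active or that passed the gate.

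Neurexins sit in the presynaptic membrane, and each neurexin gene makes a long alpha form and a short beta form from separate promoters, with further variants by alternative splicing. Neuroligins and LRRTMs sit opposite and bind neurexins. Nlgn1 is known mainly from excitatory synapses, Nlgn2 from inhibitory synapses and Nlgn3 from both kinds, whereas LRRTMs are known from excitatory synapses. Astrocytes also make neuroligins, which take part in the contact of astrocyte processes with neurons. The values here are totals per gene and do not separate alpha from beta neurexins or one splice form from another.

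In the GENCODE vM21 annotation of GRCm38 (mm10), Nrxn2 lay at chr19:6418731-6544169 on the plus strand and Nrxn3 at chr12:88722876-90334935 on the plus strand. Nlgn1 lay at chr3:25426215-26332460 on the minus strand, Nlgn2 at chr11:69823122-69837784 on the minus strand and Nlgn3 at chrX:101299168-101325963 on the plus strand. Lrrtm1 lay at chr6:77242689-77257791 on the plus strand, Lrrtm3 at chr10:63928472-64090277 on the minus strand and Lrrtm4 at chr6:80018877-80810143 on the plus strand. A RefSeq promoter, the 250 bases before and 50 bases after a transcription start on GRCm38.p6, was matched for 6 of the 9 genes, in 10 windows because some genes have several starts. Sox proteins bind DNA at a short core, written ACAAT on one strand and ATTGT on the other. Promoters of 3 genes are shown, those of Nlgn1 and Nlgn2 because these genes of 1 family fell by different amounts in the KO cells, and that of Lrrtm3 because it held a Sox core. In those of Nlgn1 (chr3:26331860-26332159) and Nlgn2 (chr11:69837735-69838034) the capitals mark CG dinucleotides, and in that of Lrrtm3 (chr10:64090206-64090505) they mark the Sox core. All 3 genes are on the minus strand and each sequence is written 5′ to 3′ on the strand of its gene.
Nlgn1: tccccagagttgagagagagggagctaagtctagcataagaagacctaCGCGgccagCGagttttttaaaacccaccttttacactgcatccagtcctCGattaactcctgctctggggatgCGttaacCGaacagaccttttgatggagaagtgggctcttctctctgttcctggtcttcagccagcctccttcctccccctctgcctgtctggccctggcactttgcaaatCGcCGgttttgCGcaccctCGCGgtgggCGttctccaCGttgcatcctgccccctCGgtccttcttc
Nlgn2: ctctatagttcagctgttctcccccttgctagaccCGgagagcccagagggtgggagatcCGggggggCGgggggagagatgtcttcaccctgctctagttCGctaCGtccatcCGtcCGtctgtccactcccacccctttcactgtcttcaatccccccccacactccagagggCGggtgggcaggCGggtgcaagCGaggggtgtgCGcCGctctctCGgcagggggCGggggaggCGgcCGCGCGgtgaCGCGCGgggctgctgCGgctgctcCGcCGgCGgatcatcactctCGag
Lrrtm3: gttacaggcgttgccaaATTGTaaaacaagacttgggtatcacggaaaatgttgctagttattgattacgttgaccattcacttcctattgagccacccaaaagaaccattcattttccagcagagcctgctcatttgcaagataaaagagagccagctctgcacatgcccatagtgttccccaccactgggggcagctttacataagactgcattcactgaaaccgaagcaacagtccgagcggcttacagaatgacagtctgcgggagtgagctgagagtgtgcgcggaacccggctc

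The Nlgn2 window held 26 CG dinucleotides and was 68.7% G and C, whereas the Nlgn1 window shown held 14 and was 55.7% G and C and the Lrrtm3 window held 10 and was 48.7% G and C. The median promoter of all 32851 windows in the table held 7 and was 52.7% G and C, so both neuroligin windows shown held more CG than the median. A second Nlgn1 start, with its window at chr3:26153937-26154236 on the minus strand and not printed, had 6 and was 44.7% G and C, below both medians. The Sox core, searched as ACAAT on both strands, was found in 1 of the 10 windows, that of Lrrtm3, as ATTGT 233 bases before the start. Of all promoter windows of this length, 31.0% held it. The longer Sox motif ACAATGG, of which ACAAT is a part, was in 0 of the 10 windows and in 3.66% of all windows, also on both strands. These counts describe letters within the windows and not binding, and their relation to the change of any gene was not tested.

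Libraries held between 18242129 and 86906527 reads on genes. Values are given as normalized counts, that is, reads on a gene divided by 1 size factor for the library, and 1 read was worth between 0.395 and 1.58 normalized counts. Sox9 stood at 5185, 6562 and 4921 normalized counts in control replicates 1, 2 and 3 and at 52.6, 64.3 and 57.7 in KO replicates 1, 2 and 3, and every KO library was far below every control. The libraries of the 2 groups also differed in cell type markers. The sum over 12 astrocyte markers, among them the glutamate transporters Slc1a2 and Slc1a3 and the water channel Aqp4, ran from 525485 to 587226 in the controls and from 35478 to 46504 in the KO libraries, which is 7.25% of the control mean. The sum over 12 microglia markers, among them Ctss and Csf1r, ran from 208341 to 236156 in the controls and from 845997 to 996519 in the KO libraries, which is 419% of the control mean. In the KO libraries the microglia sum therefore exceeded the astrocyte sum, although the samples are labelled as astrocytes. The sum over 12 neuron markers, led by Snap25, Syt1 and Gad2, ran from 19477 to 25770 in the controls and from 3321 to 5659 in the KO libraries. None of these astrocyte, microglia or neuron markers was at 0 in any library.

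All 9 neurexin, neuroligin and LRRTM genes were lower in the Sox9 KO cells, by 3.94-fold for Lrrtm1 to 14.2-fold for Nrxn2 on mean normalized counts. Their sum ran from 12738 to 13585 normalized counts over the control libraries and from 1170 to 1745 over the KO libraries, or 10.8% of the control mean. Every one passed the test at a Benjamini-Hochberg adjusted p of 0.05 and a change of at least 1.5-fold in limma on log2(normalized count + 1), with 9 called lower and 0 called higher. Of the 18413 genes tested, 28.8% were called lower and 22.2% were called higher. In 9 of the 9 genes every KO library was below every control library, which held for 34.7% of all genes tested. The median log2 fold change was -3.25 over the 9 genes and -0.07 over all genes tested. Of all calls 56.4% were lower, a share that moved to 67.8% with libraries scaled to 1 common total, to 71.5% when that total left out the ribosomal transcript Rn45s, and to 43.2% after quantile normalization, with all 9 genes still called lower under each. In sorted cells pooled for RNA, fewer cells of a type and less RNA per cell cannot be told apart, and the part that the change in the marker sums has in these values was not tested.

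**Figure D1:**
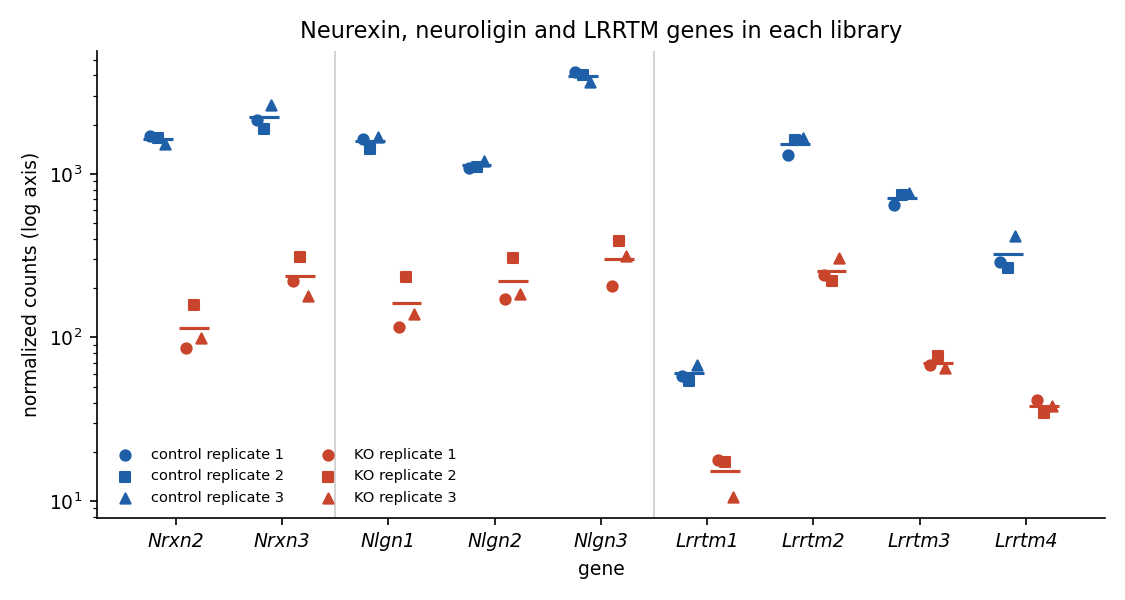
Normalized counts (log axis) of the 9 genes in each of the 3 control and 3 KO libraries, with a line at each group's mean. The KO points of every gene lie below all of its control points, and KO replicate 2 is the highest KO library in 6 of the 9 genes.

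Nrxn2 fell the furthest of the 9 genes. It stood at 1705, 1651 and 1516 normalized counts in control replicates 1, 2 and 3 and at 86.4, 158 and 98.7 in KO replicates 1, 2 and 3. The controls were close together, KO replicate 2 was the highest of the KO libraries, and the groups were far from overlapping. The mean went from 1624 ± 97.3 (SD, n = 3) to 114 ± 38.5 (SD, n = 3), a log2 fold change of -3.86 (SE 0.21, 95% interval -4.33 to -3.40, adjusted p = 1.3e-07).

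Nrxn3, the other neurexin described here, stood at 2147, 1891 and 2628 normalized counts in the controls and at 221, 311 and 179 in the KO libraries, in replicate order. Its controls were more spread than those of Nrxn2, and the lowest of them was still 6.08-fold above the highest KO library. Its mean fell from 2222 ± 374 (SD, n = 3) to 237 ± 67.3 (SD, n = 3), a log2 fold change of -3.25 (SE 0.20, 95% interval -3.69 to -2.80, adjusted p = 2.9e-07). The intervals of Nrxn2 and Nrxn3 overlapped. Nrxn2 shares 682 bases of exon with Slc22a12, a urate transporter gene on the opposite strand, and 207 with an antisense gene. Nrxn3 shares 439 bases of exon with an unnamed gene model on the opposite strand. Reads in these stretches cannot be assigned without the strand. Slc22a12 itself held 14, 7 and 4 reads in the controls, against 1167, 2399 and 962 for Nrxn2. In the KO libraries it held 1, 0 and 3 reads, against 87, 401 and 65 for Nrxn2.

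The 3 neuroligins all fell, Nlgn3 the most and Nlgn2 the least. Nlgn3 stood at 4197, 4011 and 3660 normalized counts in the controls and at 205, 386 and 313 in the KO libraries, again in replicate order. KO replicate 1 was the lowest KO library, KO replicate 2 the highest, and all controls were far above both. Its mean went from 3956 ± 273 (SD, n = 3) to 302 ± 91.0 (SD, n = 3), a 13.1-fold fall and a log2 fold change of -3.75 (SE 0.20, 95% interval -4.19 to -3.32, adjusted p = 1e-07). The annotation places 3823 bases of exon of an overlapping transcript, Gm21986, on the same strand within the exons of Nlgn3, so the 2 cannot be separated there.

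Nlgn1 stood at 1641, 1412 and 1685 normalized counts in the controls and at 116, 233 and 140 in the KO libraries. KO replicate 2 was the highest KO library, as for Nlgn3, and no KO library came near a control. On average it fell from 1579 ± 146 (SD, n = 3) to 163 ± 61.5 (SD, n = 3), a log2 fold change of -3.33 (SE 0.23, 95% interval -3.83 to -2.82, adjusted p = 6.1e-07). Nlgn1 shares 1229 bases of exon with an antisense gene, and reads there cannot be assigned without the strand. Nlgn2, the neuroligin of inhibitory synapses, stood at 1089, 1094 and 1196 normalized counts in the controls and at 173, 306 and 185 in the KO libraries. Its controls were the tightest of the 9 genes, with a coefficient of variation of 5.38%, and its groups did not overlap. Mean Nlgn2 fell from 1126 ± 60.6 (SD, n = 3) to 221 ± 73.8 (SD, n = 3), a 5.09-fold fall and a log2 fold change of -2.39 (SE 0.20, 95% interval -2.84 to -1.94, adjusted p = 3e-06). The interval of Nlgn2 did not overlap that of Nlgn3 and only just reached that of Nlgn1.

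Among the LRRTM genes, Lrrtm3 fell the most, followed by Lrrtm4, Lrrtm2 and Lrrtm1. Lrrtm3 stood at 644, 746 and 760 normalized counts in the controls and at 67.5, 77.4 and 65.3 in the KO libraries. The KO libraries lay close together, with a coefficient of variation of 9.16%, and the groups did not overlap. The mean went from 717 ± 63.0 (SD, n = 3) to 70.1 ± 6.42 (SD, n = 3), a 10.2-fold fall and a log2 fold change of -3.34 (SE 0.17, 95% interval -3.72 to -2.96, adjusted p = 9.1e-08). Lrrtm4, which binds heparan sulfate proteoglycans such as glypicans, stood at 289, 265 and 415 normalized counts in the controls and at 41.7, 34.3 and 38.0 in the KO libraries. Control replicate 3 was the high one, and its controls were the most spread of the 9 genes, with a coefficient of variation of 24.9%. Mean Lrrtm4 fell from 323 ± 80.3 (SD, n = 3) to 38.0 ± 3.68 (SD, n = 3), a log2 fold change of -3.03 (SE 0.25, 95% interval -3.59 to -2.47, adjusted p = 2.4e-06). Of its 6147 bases of merged exon, 1543 are shared with an antisense gene, and reads there cannot be assigned without the strand.

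Lrrtm2, the LRRTM gene with the most counts per length of exon, stood at 1299, 1612 and 1658 normalized counts in the controls and at 241, 221 and 305 in the KO libraries. Control replicate 1 was the low control, KO replicate 3 was the high KO library, and the groups did not overlap. Mean Lrrtm2 fell from 1523 ± 195 (SD, n = 3) to 256 ± 44.0 (SD, n = 3), a 5.95-fold fall and a log2 fold change of -2.57 (SE 0.16, 95% interval -2.92 to -2.23, adjusted p = 2.7e-07). Lrrtm1, the scarcest of the 9 genes on average, was at 58.5, 54.4 and 67.8 normalized counts in the controls and at 17.9, 17.4 and 10.6 in the KO libraries. These values rest on 40, 79 and 43 reads in the controls and on 18, 44 and 7 reads in the KO libraries, so KO replicate 3 in particular has a wide counting error. Mean Lrrtm1 fell from 60.2 ± 6.87 (SD, n = 3) to 15.3 ± 4.04 (SD, n = 3), a log2 fold change of -1.94 (SE 0.37, 95% interval -2.76 to -1.11, adjusted p = 0.0011). Quantile normalization moved the log2 fold change of Lrrtm1 to -1.10, and its adjusted p stayed at or below 0.03 under every alternative tried.

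Lrrtm1, Lrrtm2 and Lrrtm3 each lie inside an alpha-catenin gene, on the opposite strand from the host. Alpha-catenins link cadherins to actin. The host of Lrrtm2, Ctnna1, stood at a mean of 3625 ± 230 (SD, n = 3) normalized counts in the controls and 3927 ± 213 (SD, n = 3) in the KO libraries, and did not pass the test, with a log2 fold change of 0.12 and an adjusted p of 0.29. Lrrtm2 thus fell by 2.57 on the log2 scale within a host gene that was not called in either direction. The host of Lrrtm1, Ctnna2, did fall, from 318 ± 61.0 to 46.0 ± 21.1 (SD, n = 3 each), with a log2 fold change of -2.84 (adjusted p = 2.2e-05). The host of Lrrtm3, Ctnna3, was at 15.0 ± 12.8 normalized counts in the controls and 0.51 ± 0.88 in the KO libraries (SD, n = 3 each), and it too passed the test (adjusted p = 0.0082). The annotation gives 0 bases of exon shared between Lrrtm1 or Lrrtm3 and the host and 95 bases shared between Lrrtm2 and Ctnna1, so the overlap concerns mostly unspliced host RNA, which cannot be told apart without the strand.

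**Figure D2:**
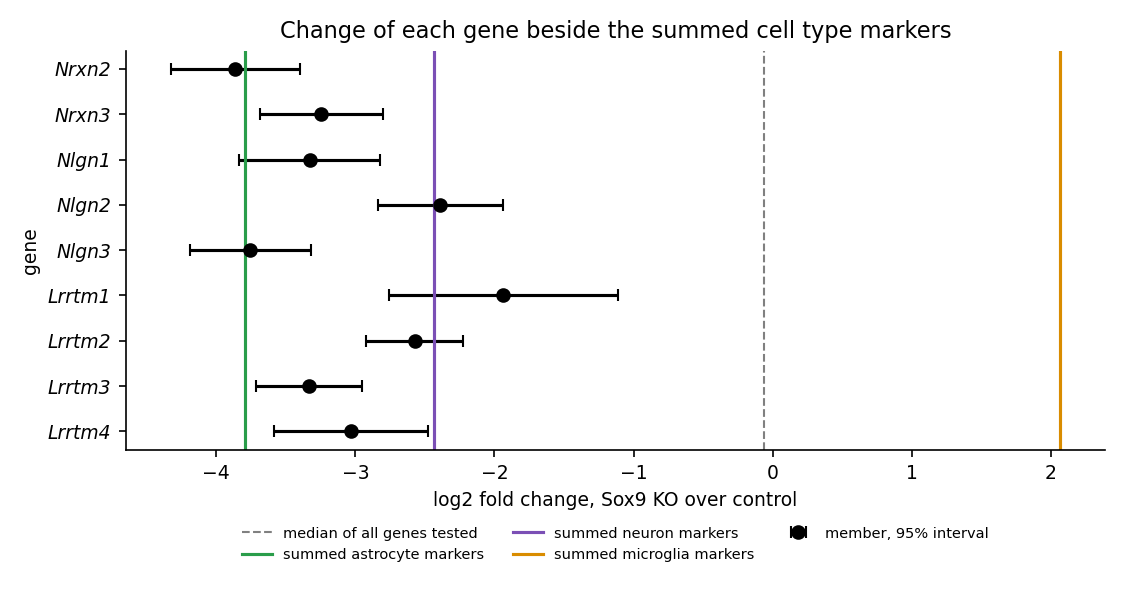
Log2 fold change (KO over control, limma) of each of the 9 genes with its 95% interval, beside vertical lines at the log2 change of the summed astrocyte, neuron and microglia markers and at the median of all genes tested. All 9 intervals lie below the median of -0.07, and the gene values run from -3.86 for Nrxn2 to -1.94 for Lrrtm1.

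To compare levels between genes, normalized counts were divided by the length of the merged exons in kilobases (kb). In the controls Nlgn3 had the highest level, 427 ± 29.4 normalized counts per kb (SD, n = 3), followed by Lrrtm2 at 253 ± 32.5 and Nlgn2 at 195 ± 10.5. Nrxn3 at 176 ± 29.7, Lrrtm3 at 169 ± 14.8, Nlgn1 at 118 ± 10.9 and Nrxn2 at 118 ± 7.05 came next. Lrrtm4 at 52.5 ± 13.1 and Lrrtm1 at 19.8 ± 2.27 were the lowest. Neighbours in this order whose control ranges overlapped were Nlgn2 with Nrxn3, Nrxn3 with Lrrtm3, and Nlgn1 with Nrxn2. Every other pair of neighbours was separated in the controls. In the KO libraries Lrrtm2 led at 42.5 ± 7.31 normalized counts per kb, ahead of Nlgn2 at 38.3 ± 12.8 and Nlgn3 at 32.5 ± 9.82, and every pair of neighbours in the KO order overlapped. Nlgn3 thus went from the highest level to the 3rd, and by merged exons the ranks from 4 down were held by the same genes in both groups. The place of the neurexins depended on the length used, since with the longest transcript in place of the merged exons Nrxn3 stood at 280 and Nrxn2 at 244 normalized counts per kb in the controls, in places 2 and 4 of the order. In the KO libraries they stood at 29.9 and 17.2 by that length, in places 4 and 6. The ranks from 4 down thus differed between the groups by that length, and some neighbours in its KO order, such as Nrxn3 and Lrrtm3, did not overlap.

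Within the neuroligins, the share held by each gene shifted from Nlgn3 to Nlgn2. Of the summed normalized counts per kb of the 3 neuroligins, Nlgn3 made up 59.3%, 59.5% and 54.3% in the controls, against 36.5%, 37.2% and 44.3% in the KO libraries, in replicate order. Nlgn2 made up 24.7%, 26.0% and 28.4% in the controls, against 49.2%, 47.3% and 42.0% in the KO libraries. Neither range overlapped, and Nlgn2 was the largest share in KO replicates 1 and 2 whereas Nlgn3 was the largest in all 3 controls and in KO replicate 3. The share of Nlgn1 was 15.9% ± 1.40 in the controls and 14.5% ± 0.921 in the KO libraries (SD, n = 3 each), and these ranges overlapped. Of the sum of Nrxn2 and Nrxn3, Nrxn3 went from 59.7% ± 5.15 to 69.5% ± 3.76 (SD, n = 3 each), with no overlap, although the highest control at 65.5% was close to the lowest KO library at 66.5%. Of the 4 LRRTM genes, Lrrtm2 went from 51.2% ± 1.74 to 60.2% ± 5.97, Lrrtm3 from 34.2% ± 1.17 to 23.6% ± 3.63 and Lrrtm1 from 4.04% ± 0.449 to 7.29% ± 2.30, none with overlap, and the ranges of Lrrtm4 overlapped, at 10.6% ± 1.94 and 8.83% ± 0.928 (SD, n = 3 each). The gap for Lrrtm1 was narrow, with the highest control at 4.44% and the lowest KO library, which rests on 7 reads of Lrrtm1, at 4.63%. Without the strand, reads of the host Ctnna1 cannot be told apart from those of Lrrtm2. Their part in the levels, shares and ratios of Lrrtm2 was not tested. How often shares among other genes would separate the groups was not counted.

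**Figure D3:**
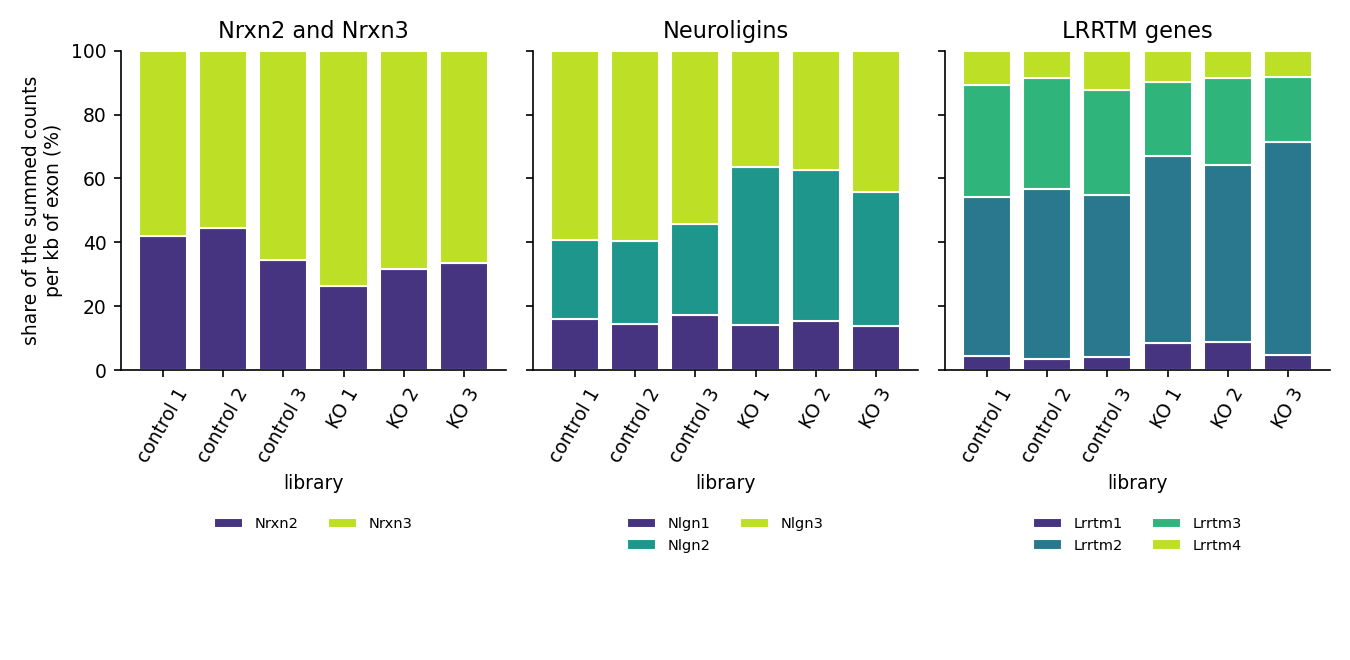
Share of each gene in its family's summed normalized counts per kb of exon (%), in each of the 3 control and 3 KO libraries. Nlgn2 makes up 24.7% to 28.4% of the neuroligins in the controls and 42.0% to 49.2% in the KO libraries, and Lrrtm3 makes up less of the LRRTM genes in every KO library than in any control.

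Log2 ratios of 2 genes in the same library, each with 1 added to its normalized count, were compared between groups for the 10 pairs within a family. Such a ratio depends on the scaling of libraries only through the added 1, which weighs most for the scarce Lrrtm1. The log2 ratio of Nlgn2 over Nlgn3 was -1.95, -1.87 and -1.61 in the controls, against -0.25, -0.33 and -0.75 in the KO libraries, a mean difference of 1.37 in favour of Nlgn2. That of Nlgn1 over Nlgn2 was 0.59, 0.37 and 0.49 in the controls, against -0.57, -0.40 and -0.40 in the KO libraries, a mean difference of -0.94. Each was larger than the spread between replicates. The groups also did not overlap for Nrxn2 over Nrxn3 (difference -0.62), Lrrtm1 over Lrrtm3 (1.40), Lrrtm1 over Lrrtm4 (1.09) and Lrrtm2 over Lrrtm3 (0.76). They overlapped for the other 4 pairs, Nlgn1 over Nlgn3 (0.42), Lrrtm1 over Lrrtm2 (0.64), Lrrtm2 over Lrrtm4 (0.46) and Lrrtm3 over Lrrtm4 (-0.31). The exact two-sided permutation test gave p = 0.10 for each of the 6 pairs without overlap, the smallest that 3 against 3 libraries allow. After Benjamini-Hochberg adjustment over the 10 pairs it was 0.17, so no pair could pass 0.05. How often other pairs of genes would separate the groups was not counted, so the 6 of 10 has no background here. Without the added 1, an alternative chosen after seeing the data, the same count of 6 pairs did not overlap, and the difference of Lrrtm1 over Lrrtm3 was 1.35 and that of Lrrtm1 over Lrrtm4 was 1.05.

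The fall of the 9 genes was set beside that of the cell type markers within each library. The astrocyte marker sum changed by -3.79 and the neuron marker sum by -2.43 on the log2 scale (KO minus control). Nrxn2 and Nlgn3 changed about as much as the astrocyte sum, with differences of -0.07 and 0.04 in the log2 of the gene over that sum, and their groups overlapped. Nrxn3 and Lrrtm4 differed by 0.55 and 0.76 with overlap. For 5 genes every KO library was above every control on this measure, Lrrtm1 by 1.86, Nlgn2 by 1.40, Lrrtm2 by 1.22 and Nlgn1 and Lrrtm3 by 0.46 each. Of all genes tested, 91.0% were higher in every KO library on this measure, a larger share than the 5 of 9 genes here. The measure adds 1 to each gene's normalized count, which limits the fall of scarce genes. Shares of all genes on this measure include such genes. The 12 single markers changed by between -5.25 and -2.72, with a median of -4.12. The 3 most abundant of them, Slc1a2, Slc1a3 and Aqp4, changed by -4.30, -2.72 and -3.26.

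The same measure was taken relative to the neuron marker sum. The 12 single neuron markers changed by between -3.13 and 0.27, with a median of -2.40. Nlgn2 and Lrrtm2 changed about as much as the neuron sum, with differences of 0.04 and -0.14 and overlapping groups. For 6 genes every KO library was below every control, with mean differences of -1.43 for Nrxn2, -1.32 for Nlgn3, -0.90 for both Nlgn1 and Lrrtm3, -0.81 for Nrxn3 and -0.60 for Lrrtm4. Of all genes tested, 5.24% were lower in every KO library on this measure, a share that includes scarce genes, whose fall the added 1 limits. Lrrtm1 was higher by 0.50 in the KO libraries without overlap, as were 74.4% of all genes tested. KO replicate 2, the highest KO library for the 2 neurexins and the 3 neuroligins, also had the highest astrocyte sum, 46504, and the highest neuron sum, 5659, of the KO libraries. Whether the 9 transcripts came from astrocytes, neurons or other cells in the sort was not tested.

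**Figure D4:**
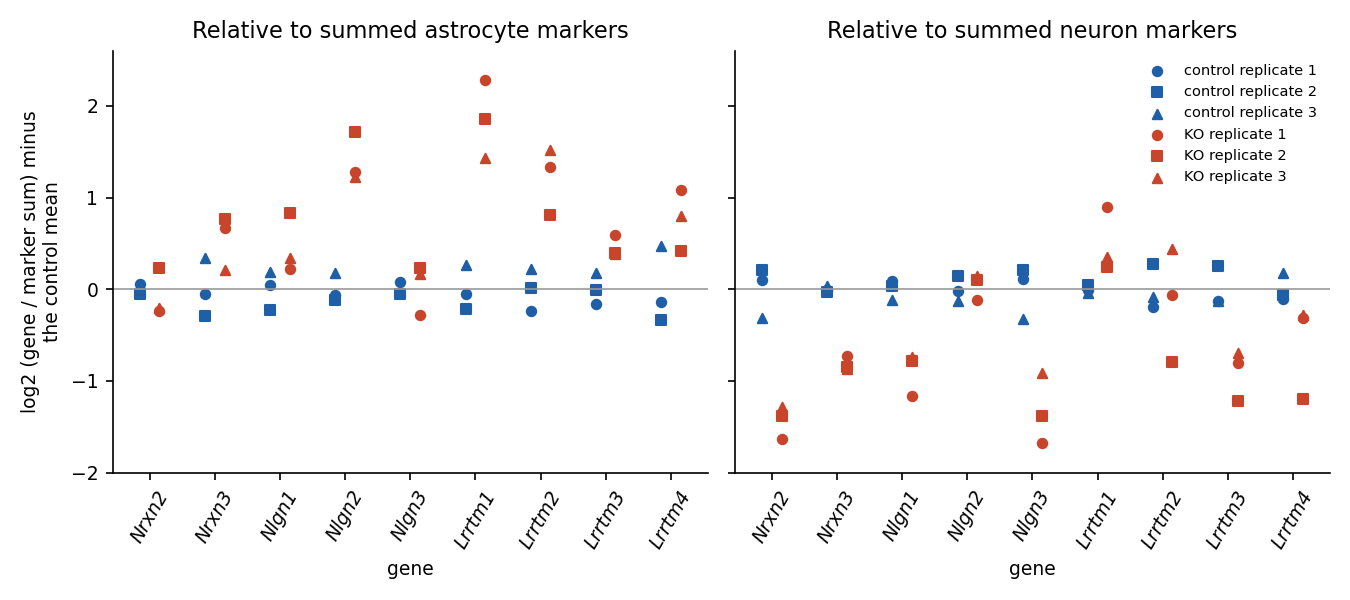
Log2 of each gene over the summed astrocyte markers (left) and over the summed neuron markers (right) in the same library, minus the control mean, for the 3 control and 3 KO libraries. On the left the KO points are above the controls without overlap for 5 genes, against 91.0% of all genes tested, and on the right they are below without overlap for 6 genes, against 5.24% of all genes tested.

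Other genes of the same adhesion system were described by role, as lists of partners. Of 102 genes listed, 101 were tested, of which 76 were called lower, 5 were called higher and 20 were not called, with a median log2 fold change of -2.01. Among genes related to neurexins, 6 of 7 contactin-associated protein genes were called lower and 0 higher, with a median of -2.24. They included Cntnap2, which clusters potassium channels in axons (-2.24, adjusted p = 2e-06), Cntnap4 (-4.32, adjusted p = 4.1e-06) and Cntnap1, of the paranode (-0.88, adjusted p = 0.0067), whose call was lost after quantile normalization (-0.19, adjusted p = 0.48). Among further ligands of neurexins, 13 of 17 tested were called lower and 0 higher, with a median of -1.99. Dystroglycan, Dag1, had 14017 ± 1364 normalized counts in the controls and 3298 ± 228 in the KO libraries, the latrophilin Adgrl1 went from 7154 ± 756 to 553 ± 143 (SD, n = 3 each), and calsyntenin 1, Clstn1, changed by -1.33 on the log2 scale (adjusted p = 8.3e-06).

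Among genes that act on neuroligins or on the neurexin-neuroligin bridge, 12 of 13 were called lower and 1 higher, with a median of -2.27. Sparcl1, which encodes hevin, an astrocyte protein that bridges neurexin and neuroligin, went from 79872 ± 9343 to 7226 ± 1839 normalized counts (SD, n = 3 each), with a log2 fold change of -3.49 (adjusted p = 6.2e-08). Its relative Sparc, which opposes hevin, changed less, by -0.80 (adjusted p = 0.0028). The receptor phosphatase Ptprs, a partner of LRRTM4 through glypicans, changed by -2.61 (adjusted p = 3.7e-07). The gene called higher was Thbs1, a thrombospondin, a secreted protein that promotes synapse formation, which went from 844 ± 164 to 3973 ± 496 normalized counts (SD, n = 3 each), with a log2 fold change of 2.24 (adjusted p = 4.2e-07).

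Among other leucine-rich adhesion genes, 15 of 19 were called lower and 0 higher, with a median of -2.28. Slitrk2, a ligand of receptor phosphatases, changed by -3.38 (adjusted p = 4.5e-08), and the netrin-G ligand genes Lrrc4b and Lrrc4c changed by -3.93 (adjusted p = 1.1e-06) and -2.72 (adjusted p = 1.8e-06). All 8 teneurin and SynCAM genes were called lower, with a median of -2.16, from -0.65 for Cadm1 (adjusted p = 0.00021) to -3.11 for Cadm2 (adjusted p = 4e-08) and -3.08 for Tenm3 (adjusted p = 4.9e-08) among the 3 most abundant. Each of these lists held a larger share of lower calls than the 28.8% of all genes tested. No list was tested as a set.

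Scaffolds bind the intracellular ends of these proteins on either side of the synapse. Of 18 postsynaptic scaffold genes, 14 were called lower and 0 higher, with a median of -2.13. Dlgap1 changed by -3.62 (adjusted p = 8.3e-09), whereas Dlg1 and Dlgap4 were at -0.35 and -0.52 and did not reach the 1.5-fold threshold. Of 10 presynaptic scaffold genes, 4 were called lower and 1 higher, with a median of -0.95. Over all genes tested 28.8% were called lower and 22.2% higher, so the presynaptic counts were not far from those of genes in general. Cask, which binds the tail of neurexins, was at -0.45 and its partner Lin7c at -0.10, and neither was called. Sdcbp, which encodes syntenin, another binder of neurexin tails, went from 11009 ± 897 to 26964 ± 3609 normalized counts (SD, n = 3 each), with a log2 fold change of 1.29 (adjusted p = 4.4e-06). With libraries scaled to 1 common total, with or without Rn45s, 7 of the 10 presynaptic and 16 of the 18 postsynaptic scaffold genes were called lower, Cask, Dlg1 and Dlgap4 among them, and quantile normalization also called Cask and Dlgap4 lower. Under these 2 total scalings, with and without Rn45s, 6189 and 6595 of all genes tested were called lower, against 5299 in the main test. The difference between the 2 scaffold lists was not tested.

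Of 6 genes of proteases that shed or process such adhesion proteins at the membrane, 3 were called higher and 2 lower, with a median of 0.50. Over all genes tested 22.2% were called higher and 28.8% lower, and counts out of 6 genes are small beside these shares. Adam10, a protease that cleaves Nlgn1 and Nlgn3, went from 3403 ± 66.6 to 7293 ± 174 normalized counts and Adam17 from 3745 ± 257 to 8738 ± 366 (SD, n = 3 each), log2 fold changes of 1.10 (adjusted p = 8.7e-07) and 1.22 (adjusted p = 8.8e-07). Bace1 fell by 0.90 (adjusted p = 2.8e-05) and Mmp9 by 1.61 (adjusted p = 0.00092). Scaling to 1 common total left 2 of the 6 called higher and moved the median to 0.25, or to 0.17 without Rn45s, and quantile normalization left 1 called lower, with Mmp9 at -0.75 (adjusted p = 0.065). Over all genes tested, 2937 were called higher with 1 common total, against 4090 in the main test. After quantile normalization 4100 were called lower, against 5299 in the main test. In the same libraries the microglia marker sum rose by 2.07 on the log2 scale, and its part in the values of these proteases was not tested.

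**Figure D5:**
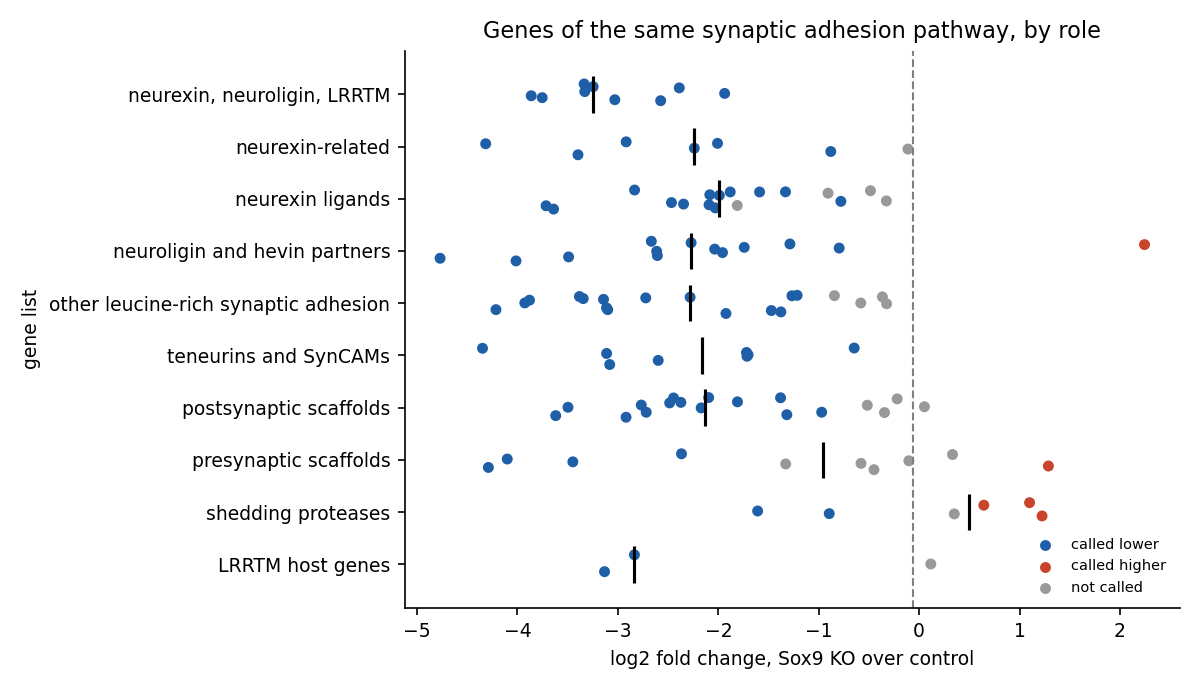
Log2 fold change (KO over control) of every tested gene of the 9 partner lists and of the 9 neurexin, neuroligin and LRRTM genes, coloured by call, with a bar at each list's median and a dashed line at the median of all genes tested. The median is -3.25 for the 9 genes and -2.84 for the LRRTM host genes. Medians lie between -2.28 and -1.99 for the adhesion partner lists and postsynaptic scaffolds, at -0.95 for presynaptic scaffolds and at 0.50 for the shedding proteases.

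For each of the 9 genes, the gene outside the group with the most alike profile was found among 15552 genes as the smallest root mean square difference of centred log2 values over the 6 libraries. Nlgn3 had the closest match, Asrgl1, an asparaginase gene, at 0.0495. Asrgl1 stood at 4415, 4557 and 4073 normalized counts in the controls and at 220, 440 and 328 in the KO libraries, so that KO replicate 2 was the highest KO library for it as well. Nrxn2 was nearest to the fatty acid desaturase Fads2 at 0.0687, Nrxn3 to Plek2 at 0.0826, Nlgn1 to the secretory granule gene Scg3 at 0.0813 and Nlgn2 to the sodium pump subunit Atp1b1 at 0.0780. The LRRTM genes were nearest to Trh, a neuropeptide precursor, for Lrrtm1 at 0.103, Kazn for Lrrtm2 at 0.0947, the bicarbonate transporter Slc4a8 for Lrrtm3 at 0.103 and Pcp4 for Lrrtm4 at 0.119. These distances rest on 6 libraries, most of whose variance lies between the groups.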

How the data were processed

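RNA from TurboRFP-sorted olfactory bulb cells of 3 control and 3 Sox9 KO mice was made into libraries from 10 ng of total RNA with a NuGEN Trio kit. According to the submitters' processing notes and the study's methods, the authors used FastQC and MultiQC, mapped reads to mm10 with STAR 2.5.0a, used GenomicAlignments and GenomicFeatures to count them over genes, and normalized with DESeq2 1.20.0. Gene annotation and strand setting: not given in the sources used here. All deposited values are a signal, a number for each gene in each library. Despite the name RPM, they were found to be whole reads divided by a library's size factor: 100% of the values in each library were whole multiples of 1 read within 0.01 read.

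The main test was limma 3.58.1 in R 4.3.3 on log2(value + 1), with a trend of variance on mean, over genes with a mean of at least 1 (18413 tested, 6008 left out), with Benjamini-Hochberg adjustment over all genes tested and a call at adjusted p of 0.05 and 1.5-fold. Fold changes of scarce genes are understated by the pseudocount. In the files 27 symbols had turned into dates. Alternatives were pseudocounts of 0.5 and 5, no filter or a minimum mean of 10, other scalings, a replicate block, limma without the trend, edgeR 4.0.16 (quasi-likelihood) and DESeq2 1.42.0 on the recovered reads, and leaving out each library. Fits were tested on simulated data in which few genes changed, equally in both directions. Far more genes changed in the real data, so that check does not cover the scaling of these libraries. Positions and exon lengths came from GENCODE vM21, whose build is that of the authors. The text names the 9 genes, Sox9, the Lrrtm host genes, at most the 3 most abundant genes of a list plus those called against its majority, and the gene with the nearest profile, among genes with a mean of at least 10. Slc22a12 was named after its values were seen. The 9 genes and the lists were chosen with earlier results of these data known. Some other genes of the neurexin family and of the lists are not reported here by name. P-values measure the spread between mice, 3 per group. In limma the variance of each gene is also drawn toward the trend over all genes, so its p-values and intervals do not rest on these mice's spread for that gene alone. Counting intervals would cover counting error only.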

Additional observations from a re-analysis of the deposited data

How the results depend on the processing

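All 9 genes remained lower and past the threshold under each of the 18 alternatives, 162 values in all. Log2 fold changes ran from -4.19 to -3.55 for Nrxn2, from -3.57 to -3.06 for Nrxn3, from -3.66 to -3.07 for Nlgn1, from -2.71 to -2.14 for Nlgn2, from -4.08 to -3.50 for Nlgn3, from -2.25 to -1.10 for Lrrtm1, from -2.90 to -2.39 for Lrrtm2, from -3.66 to -2.87 for Lrrtm3 and from -3.35 to -2.35 for Lrrtm4. Scaling to the same total without Rn45s gave the lowest value of each gene. Over all genes tested, 4090 were called higher, and 2627 were under scaling to the same total without Rn45s. That scaling moved the median log2 fold change of all genes by -0.32, scaling to the same total by -0.24 and quantile normalization by 0.27. With the replicate number as a block, 5227 genes were called lower and 4048 higher against 5299 and 4090 without it, and 9 of the 9 genes were still called lower. Deviations of same-numbered libraries had correlations of -0.05, -0.01 and -0.01, so the libraries share only a number and no pairing was used. DESeq2 gave 737 genes no adjusted p. Depth limits Lrrtm1 most, with 7 reads in KO replicate 3.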

Other observations

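The 9 genes were also set beside marker sums of immature and glial precursor cells of the bulb. The sum over 7 neuroblast markers, among them Dcx, Sox11 and Sp8, changed by -4.12 on the log2 scale (KO minus control). Relative to it, 7 of the 9 genes were higher in every KO library than in any control, and Nrxn2 and Nlgn3 overlapped, against 92.2% of all genes tested that were higher without overlap. The sum over 6 oligodendrocyte precursor markers, among them Pdgfra, Lhfpl3 and Cspg4, changed by -2.87. Relative to it, Nrxn2, Nlgn1 and Nlgn3 were lower without overlap, Lrrtm1 was higher without overlap, and the other 5 genes overlapped, against 3.33% of all genes tested that were lower and 79.7% that were higher without overlap. These shares of all genes include scarce genes, whose fall is limited by the 1 added to each normalized count. Of the markers of further cell types, 8 of 8 oligodendrocyte genes, among them Mbp and Cnp, and 3 of 5 mitral and tufted cell genes were called lower by limma. So were 4 of 7 endothelial genes and 3 of 4 olfactory ensheathing cell genes, against 28.8% of all genes tested. Among the ensheathing cell genes called lower, Npy (log2 fold change -0.60, adjusted p = 0.046) had overlapping groups. Its call was lost after quantile normalization (-0.57, under 1.5-fold) and under another scaling, by TMM factors (adjusted p = 0.057 in limma). The endothelial gene Flt1 was called higher (log2 fold change 0.80, adjusted p = 0.00076), against 22.2% of all genes tested. The call of Flt1 was lost with libraries scaled to 1 common total (0.56, adjusted p = 0.0087) and without Rn45s (0.47, adjusted p = 0.015), both under 1.5-fold. After quantile normalization and without control replicate 3, 2 of the 7 endothelial genes were called lower. Of all genes tested, 4100 and 4947 were called lower under these 2 settings, in that order, so the endothelial counts have a background of that size.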
